A study of Homo sapiens with 24 samples.

Results

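The genes described here encode the proteins of the cytosolic ribosome. They were chosen by gene symbol alone, as RPL or RPS followed by a number and at most a letter A, X or L (with a further digit allowed for RPL, as in RPL7L1), the RPLP genes and RPSA. Kinases of the RPS6K family were left out, and so were symbols of another form, such as RPL36AL. The rule matched 93 rows of the expression table and 83 genes, out of 25161 symbols on 25575 rows. Of these genes, 51 encode proteins of the large subunit and 32 proteins of the small subunit. For the 8 genes with several rows, the row with the highest mean was used. All 83 symbols were protein-coding genes in RefSeq, spread over 21 chromosomes.

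RNA of 2 human lymphoma cell lines was hybridised to Clariom D arrays. SU-DHL-4 is a line of diffuse large B-cell lymphoma, and DG-75 is a Burkitt lymphoma line. For 72 h the cells received DMSO as solvent control, Entospletinib (Ento) at 1 µM, AZD5153 (AZD) at 0.01 µM, or the 2 inhibitors combined at the same doses (Ento+AZD). Ento inhibits the kinase SYK, which acts below the B-cell receptor, and AZD is a bivalent inhibitor of BET proteins, which read acetylated chromatin. The 8 groups of line and treatment held 3 arrays each, numbered 1 to 3, 24 arrays in all, and every value below is a log2 expression value or a difference of such values. Each lymphoma type was represented by 1 line, so that a difference between the lines is not a difference between the diseases.

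Ribosomal proteins surround the ribosomal RNA in both subunits, and a growing cell needs nearly all of them in equal amounts. Their mRNAs are among the most abundant in the cell. Many of these mRNAs begin with an unbroken run of C and T letters, the terminal oligopyrimidine or TOP motif, through which mTOR signalling controls their translation. Transcription of ribosomal protein genes is also a known target of MYC, which is rearranged in Burkitt lymphoma. Some ribosomal proteins have a paralogue, a related gene with a narrower or lower expression, and 7 of the 83 genes were such paralogues (RPL22L1, RPL26L1, RPL39L, RPL3L, RPL7L1, RPL10L and RPS27L).

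The annotated gene starts were searched for this feature. In the RefSeq promoter table (GRCh38.p14), 66 of the 83 genes had an annotated start and 17 had none, RPL39L and RPL3L among the latter. A run of at least 6 letters C or T that began within 5 bases of the start or ran across it, read on the gene's strand only, was present in 53 of 61 genes that are not paralogues (86.9%). It was present in 1 of 5 paralogues and in 4963 of 27305 genes of the whole table (18.2%). For a gene with several annotated starts the longest run was taken. A run in this window is a description of the letters and was not a test of a TOP mRNA. The windows below show 20 bases before the annotated start and 10 bases from it, with the run in capitals. RPL39 and RPS27 are shown because their paralogues RPL39L and RPS27L are described at length below, RPL22 and RPL22L1 because both genes of that pair hold a run, unlike the pairs RPL10 and RPL10L, RPL26 and RPL26L1, and RPS27 and RPS27L (the remaining pairs lacked an annotated start for a gene), and RPL24, RPL35A, RPS26, RPL29, RPS28 and RPL7L1 because they differed between the lines.
RPL39 (chrX:119791621-119791650, minus strand): gctcgttcttccgccagCTTCCCTCCTCTT
RPS27 (chr1:153990742-153990771, plus strand): gcaggatttccgctttcgCTCCTTTCCggc
RPS27L (chr15:63157468-63157497, minus strand): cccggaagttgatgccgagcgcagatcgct
RPL22 (chr1:6199586-6199615, minus strand): ctgcgtagttcgctcaCCTCCCTTTCTaac
RPL22L1 (chr3:170870186-170870215, minus strand): gaccgcgcggccgtagCTTCCTCTCTgctc
RPL7L1 (chr6:42879596-42879625, plus strand): cgcgccggaagtgcggcgccgtagctagga
RPL24 (chr3:101686709-101686738, minus strand): gtctcttcccatgaTTCTCTCTTTCTTTTC
RPL35A (chr3:197950170-197950199, plus strand): ccacgcggcggggcctcgTCCTTCTCTTac
RPS26 (chr12:56041898-56041927, plus strand): gctgggagacacataacctcgaTTTTCTTC
RPL29 (chr3:51995886-51995915, minus strand): tgctgcaccgcagCCCCTTTCTCTTCCggt
RPS28 (chr19:8321476-8321505, plus strand): ggctctccccgaagcacgtgaCTCCTCTCC
RPL22L1 carries a run of 10 letters across its start, close to the run of 11 letters in RPL22. RPS27L and RPL7L1 hold no run longer than 2 letters at the start, whereas RPS27 has one of 9.

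Ribosomal protein genes sat near the top of the array. Their means over the 24 arrays lay between 5.08 and 12.74, and 76 of the 83 were above 10, while the highest value on any array was 12.98 to 13.22 and array medians were 4.89 to 5.14. The 7 genes under 10 were 6 paralogues and RPL27, which had a mean of 9.95. RPL22L1 was the paralogue above 10, with a mean of 10.68. Levels of different genes come from different probes and are not ranked further here. Whether signals this close to the highest values are compressed was not tested. Many ribosomal protein genes also have processed pseudogenes with a near-identical sequence, so that a probe may read more than the named gene.

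The spread between replicates was small. The median SD of the 83 genes within a group was 0.052 to 0.102, against 0.177 to 0.223 for all rows. B-cell markers were high in both lines (10 genes, 6.69 to 12.43 in SU-DHL-4 and 5.71 to 11.86 in DG-75), and 14 markers of T, NK, myeloid and erythroid cells lay at 1.26 to 5.83 and 1.03 to 6.05. The line of each array was taken from its label. BCL2, whose gene is joined to the immunoglobulin heavy chain locus in SU-DHL-4 and which was named here after its values were seen, lay at 8.23 to 8.95 on the 12 arrays labelled SU-DHL-4 and at 5.16 to 6.60 on the 12 labelled DG-75. The array measures RNA from a whole culture, in which fewer cells and less RNA per cell cannot be told apart.

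The first question was whether SYK or BET inhibition altered the ribosomal protein mRNAs at all. As a group they hardly moved. The mean level of the 83 genes lay between 11.37 and 11.55 on every array. In SU-DHL-4 it was 11.48 ± 0.041 under DMSO (SD, n = 3), 11.45 ± 0.056 under Ento, 11.45 ± 0.077 under AZD and 11.50 ± 0.065 under Ento+AZD. In DG-75 it was 11.48 ± 0.055, 11.48 ± 0.024, 11.45 ± 0.021 and 11.48 ± 0.058 in the same order. The 4 groups of each line overlapped.

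Gene by gene, the median change of the 83 genes against DMSO was -0.01 under Ento, -0.02 under AZD and 0.04 under Ento+AZD in SU-DHL-4, where the median of all rows was -0.06, -0.08 and -0.08. In DG-75 it was -0.00, -0.01 and 0.00, with medians of all rows of -0.00, -0.06 and -0.07. These contrasts share their DMSO arrays within a line and are not independent of each other. Subtracting each array's median in place of the deposited scale moved the all-row median by 0.118 to 0.130 in SU-DHL-4 and by 0.018 to 0.088 in DG-75. On that scale the medians of the ribosomal protein genes were 0.10, 0.10 and 0.17 in SU-DHL-4 and 0.02, 0.05 and 0.09 in DG-75. The sign of these small medians turned with the scaling for Ento and AZD alone and was positive on both scales for Ento+AZD, and changes below are differences on the deposited scale.

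**Figure D1:**
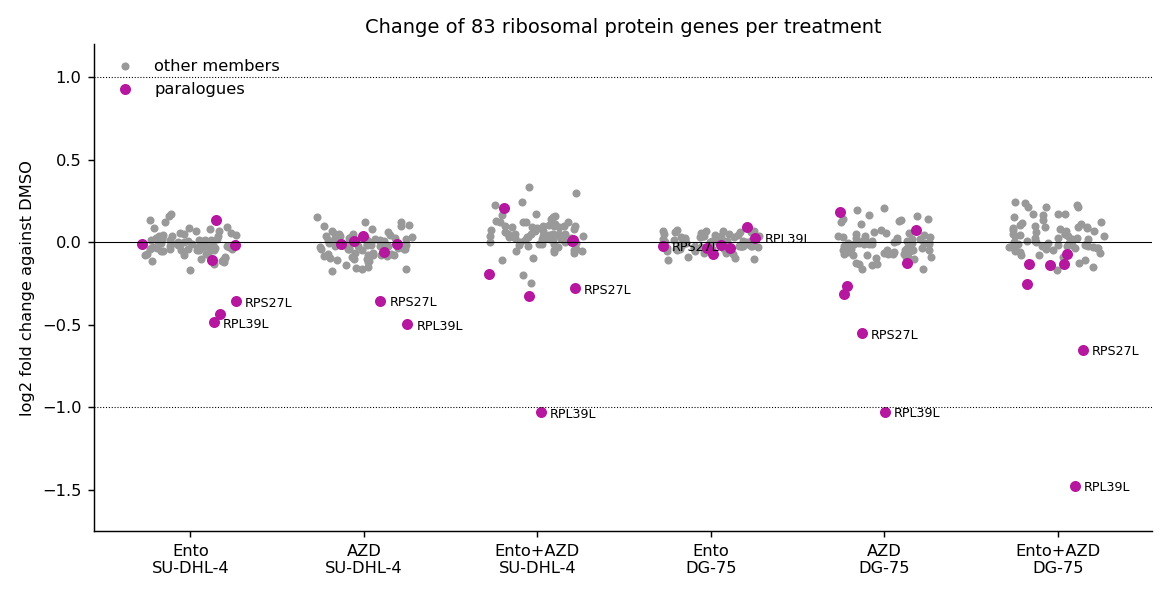
Log2 fold change against DMSO (vertical axis) of each of the 83 ribosomal protein genes under Ento, AZD and Ento+AZD in SU-DHL-4 and DG-75 (horizontal axis, points spread sideways at random), from the limma fit of each line. The 76 genes that are not paralogues (grey) stay in a narrow band around 0, and RPL39L lies at -1.03 under Ento+AZD in SU-DHL-4 and at -1.48 in DG-75. Dotted lines mark changes of -1 and 1.

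A gene was called at a Benjamini-Hochberg adjusted p under 0.05 over all 25575 rows and an absolute log2 fold change above 1, from limma with the replicate number as a batch term. Under Ento, 0 of the 83 genes were called in SU-DHL-4 (0.0508% of all rows) and 0 in DG-75 (0.00391% of all rows). Under AZD, 0 were called in SU-DHL-4 (0.18% of all rows) and 0 in DG-75 (0.18% of all rows). Under Ento+AZD, 1 gene was called in SU-DHL-4 (1.19% of all rows) and 1 in DG-75 (0.833% of all rows), in both lines RPL39L. At an adjusted p under 0.05 without a fold minimum the counts were the same, with 0.0547%, 0.207% and 2.36% of all rows passing under Ento, AZD and Ento+AZD in SU-DHL-4 and 0.00391%, 0.293% and 2.39% in DG-75. Unadjusted p-values under 0.05 were found for 2, 1 and 1 genes under Ento, AZD and Ento+AZD in SU-DHL-4 (8.59%, 11.5% and 14% of all rows). In DG-75 they were found for 0, 1 and 1 genes (2.81%, 13.8% and 16% of all rows). These counts depended on how the variance was estimated, as given below.

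The intervals show how large a change could have been missed. Under Ento+AZD, the 95% confidence interval of the change lay within 1.5-fold in either direction for 77 of the 83 genes in SU-DHL-4 (52.6% of all rows) and for 80 in DG-75 (52% of all rows). Under the single agents this held for 80 and 81 genes in SU-DHL-4 (56.8% and 54.3% of all rows) and for 82 and 79 in DG-75 (67.5% and 54.2% of all rows). The interval lay within 2-fold for 82 and 81 genes under Ento+AZD (92.9% and 91.6% of all rows). The genes outside that range were RPL39L in both lines and RPS27L in DG-75.

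The standard errors behind these intervals were set in part by all rows. limma draws each gene's variance towards a common value, and the median SE of the 83 genes was 0.135 (SU-DHL-4) and 0.123 (DG-75). With a common value that follows the expression level, estimated robustly, the median SE was 0.076 and 0.069. In that fit the genes at an adjusted p under 0.05 were 0, 0 and 1 under Ento, AZD and Ento+AZD in SU-DHL-4 (0.176%, 0.989% and 4.18% of all rows) and 0, 1 and 3 in DG-75 (0.00391%, 3.43% and 5.43% of all rows). RPL39L was the gene called in each of these. The other genes under Ento+AZD in DG-75 were RPL28, with a change of 0.22 (SE 0.062, adjusted p = 0.046), and RPS15, with a change of 0.21 (SE 0.052, adjusted p = 0.027). Neither passed in the fit with one common value, where the limma adjusted p was 0.42 for RPL28 and 0.41 for RPS15. With the value that follows the level, 3, 1 and 10 of the 83 genes had an unadjusted p under 0.05 under Ento, AZD and Ento+AZD in SU-DHL-4. In DG-75 there were 0, 8 and 13. The share of all rows at that unadjusted p was not computed in this fit, so that these counts stand without a background.

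**Figure D2:**
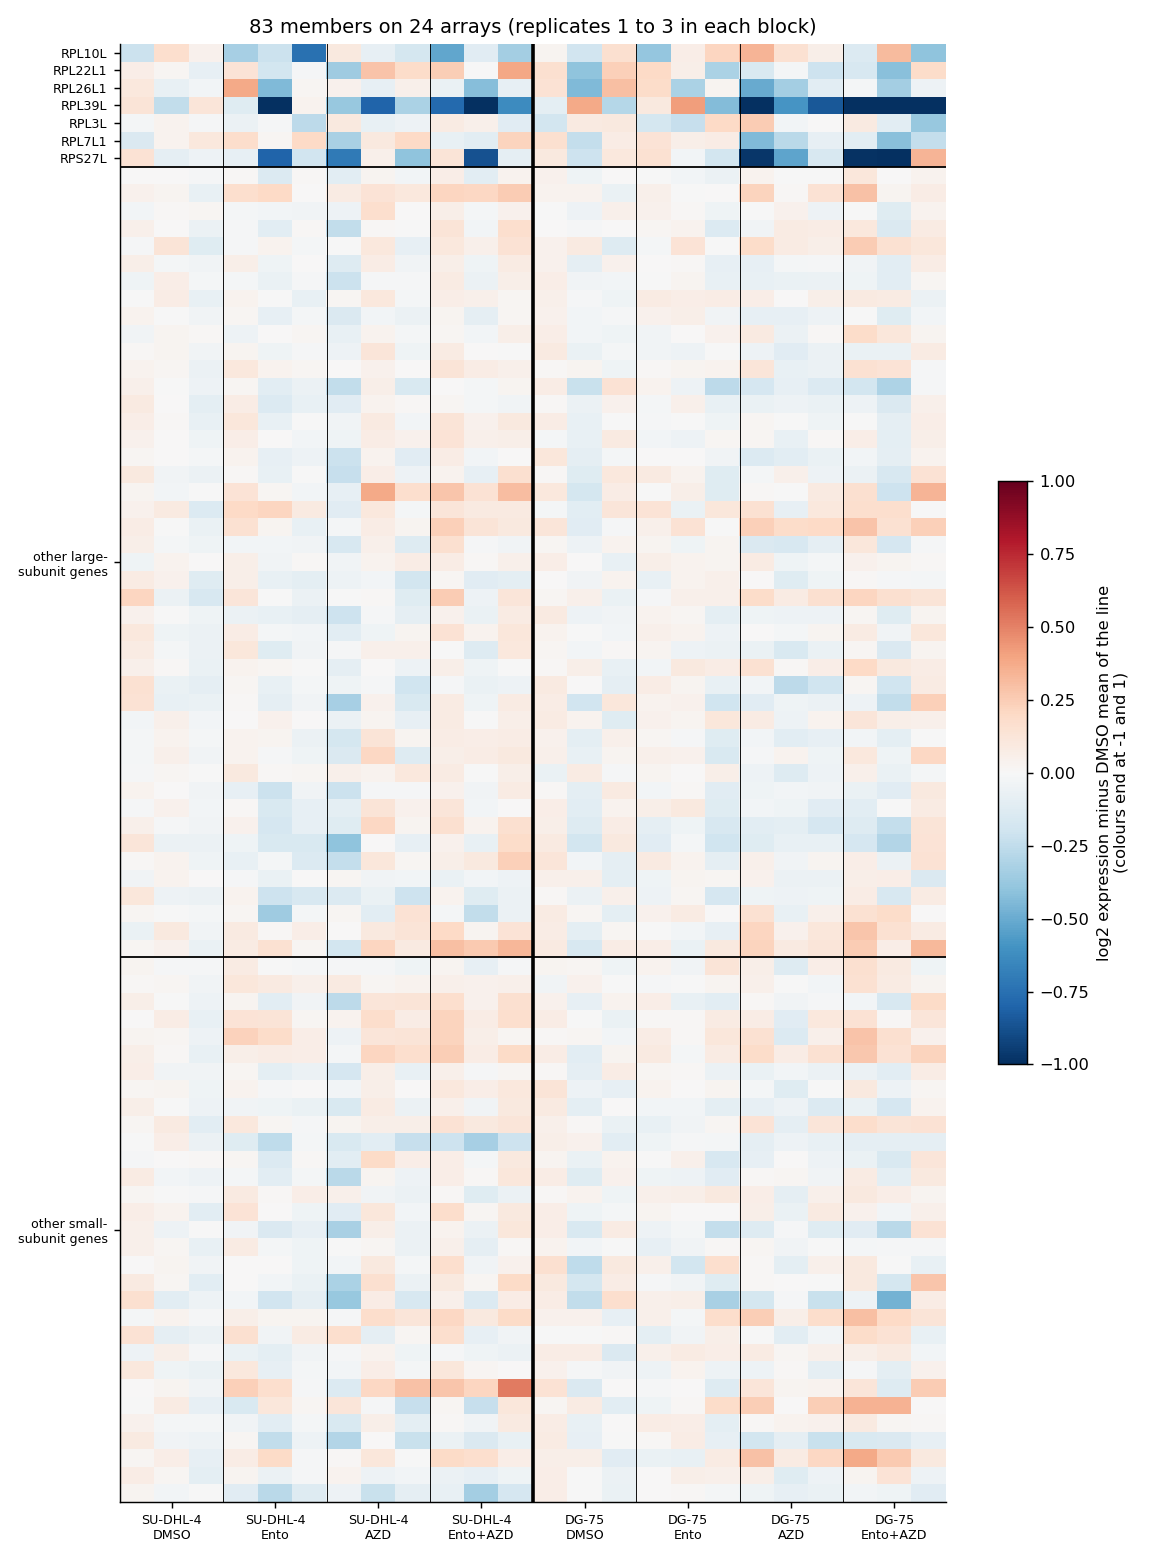
Log2 expression of the 83 genes (rows: the 7 paralogues by name on top, then the other large-subunit and small-subunit genes, not named) on the 24 arrays (columns, replicates 1 to 3 per group), minus the DMSO mean of the same line; the colour scale ends at -1 and 1. Rows of RPL39L and RPS27L hold the darkest blue, single arrays of other paralogues are also shaded (RPL10L under Ento in SU-DHL-4, RPL26L1 and RPL7L1 under AZD in DG-75), and most rows of the 76 other genes are pale.

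RPL39L was the gene that fell. It is a paralogue of RPL39, a short protein in the wall of the exit tunnel of the large subunit, and its expression is best known from the testis. In SU-DHL-4, RPL39L was 6.71, 6.33 and 6.70 on the DMSO arrays and 5.80, 4.91 and 5.95 on the Ento+AZD arrays. The groups did not overlap, and each Ento+AZD array was below the DMSO array of the same number. The change was -1.03 (SE 0.196, 95% interval -1.45 to -0.60, limma adjusted p = 0.019). The call depended on the replicate number as a batch term, and without it the adjusted p was 0.215.

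In DG-75, RPL39L was 6.40, 6.88 and 6.22 under DMSO and 4.46, 5.36 and 5.26 under Ento+AZD. Again every Ento+AZD array was below every DMSO array. The change was -1.48 (SE 0.236, 95% interval -1.99 to -0.96, limma adjusted p = 0.020). The lowest RPL39L values lie near the array medians, and without a detection value it is not known how much of them is background, so that the size of the fall is the measured one and not a fold of transcript. Among all rows, 1.09% (SU-DHL-4) and 0.708% (DG-75) were called lower.

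Under AZD alone RPL39L was 6.21, 5.79 and 6.27 in SU-DHL-4 and 4.86, 5.91 and 5.65 in DG-75. Both groups lay below the DMSO arrays of their line without overlap, with changes of -0.50 (SE 0.196, limma adjusted p = 0.36) and -1.03 (SE 0.236, limma adjusted p = 0.087), and neither passed the test. With an array or replicate number left out, these changes ranged from -0.64 to -0.32 in SU-DHL-4 and from -1.26 to -0.77 in DG-75. The DG-75 change under AZD did pass when variances followed the expression level, at a limma adjusted p of 0.025. Under Ento alone the values in SU-DHL-4 were 6.46, 5.22 and 6.62, of which the second stands apart from the others. The change was -0.48 (limma adjusted p = 0.53), and -0.69 to -0.17 with an array or replicate number left out. In DG-75 the Ento values of 6.60, 6.91 and 6.07 overlapped those of DMSO, with a change of 0.03 (SE 0.236, 95% interval -0.49 to 0.54).

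What each agent added to the other was read from the combination against the single agents. In DG-75, RPL39L under Ento+AZD differed from Ento alone by -1.50 (SE 0.236, limma adjusted p = 0.020), the 1 gene of the 83 called in that comparison (0.657% of all rows). Against AZD alone the difference was -0.45 (95% interval -0.97 to 0.07), and -0.66 to -0.27 with an array or replicate number left out. No gene was called in that comparison, of the 83 or of all rows (0%). In SU-DHL-4 the RPL39L difference was -0.54 against Ento (limma adjusted p = 0.35) and -0.53 against AZD (limma adjusted p = 0.63). There 0 of the 83 genes were called against Ento (0.0821% of all rows) and 0 against AZD (0.0274% of all rows), with unadjusted p-values under 0.05 for 1 gene in each (9.67% and 7.03% of all rows). In DG-75 such p-values were found for 2 genes against Ento and 0 against AZD (14.8% and 4.03% of all rows). With variances that follow the expression level there were 4 and 3 such genes in SU-DHL-4 and 9 and 0 in DG-75. The share of all rows was not computed there.

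The lines were not shown to differ in this response. The change of RPL39L in SU-DHL-4 minus that in DG-75 was 0.45 under Ento+AZD (SE 0.322, 95% interval -0.23 to 1.12, limma adjusted p = 0.88), 0.53 under AZD and -0.51 under Ento. These differences rested on few arrays, and leaving out an array or replicate number gave 0.15 to 0.66, 0.28 to 0.73 and -0.80 to -0.19. In the fit with one common variance, 0 of the 83 genes passed at an adjusted p under 0.05 in any of the 3 responses. Of all rows, 0.00782%, 0% and 0.0352% passed under Ento, AZD and Ento+AZD. At an unadjusted p under 0.05 there were also 0 genes (4.43%, 6.16% and 6.51% of all rows). With variances that follow the expression level, 0 genes passed at the adjusted p (0.00782%, 0.0313% and 0.152% of all rows). There 1, 0 and 1 genes had an unadjusted p under 0.05, and the share of all rows was not computed.

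The RPL39L calls rested on few arrays. In SU-DHL-4 the change was -0.93 and -0.90, under the fold minimum, with quantile normalization and with array medians subtracted. Leaving out DMSO array 1 or DMSO array 3 kept the SU-DHL-4 call, and leaving out any other array of these groups or any replicate number gave an adjusted p of 0.060 to 0.136 with changes of -1.17 to -0.83. In DG-75 the call was kept without Ento+AZD array 3 and without replicate number 3, and any other omission gave an adjusted p of 0.054 to 0.314 with changes of -1.61 to -1.24. The call against Ento alone in DG-75 was kept without Ento array 3, Ento+AZD array 3 or replicate number 3, was lost in the other omissions at an adjusted p of 0.062 to 0.332, and was lost at 0.159 when only these 2 groups were fitted.

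RPL39 itself did not follow. Its values lay between 10.95 and 11.34 on all 24 arrays, and its change under Ento+AZD was 0.08 in SU-DHL-4 (95% interval -0.23 to 0.38) and 0.09 in DG-75 (95% interval -0.20 to 0.38). The intervals of RPL39 and RPL39L did not meet in either line.

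**Figure D3:**
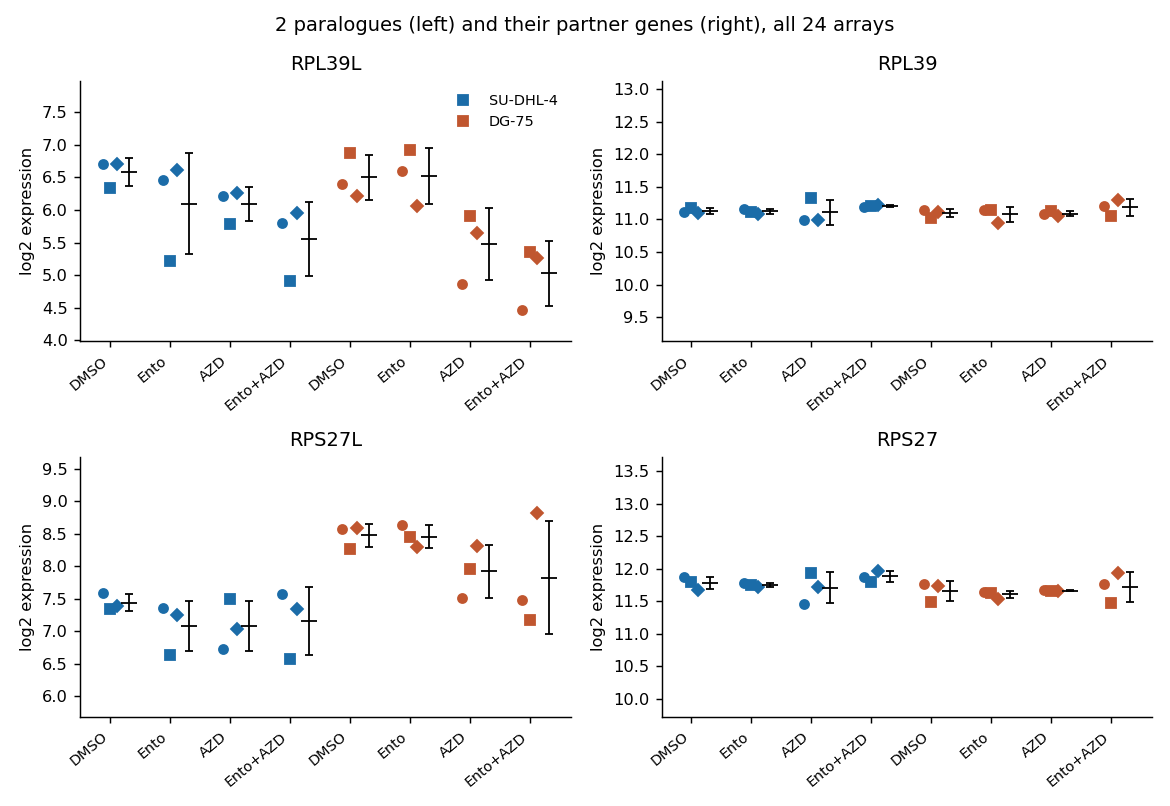
Log2 expression (vertical axis, each panel spanning 4 units) of RPL39L, RPL39, RPS27L and RPS27 on all 24 arrays by group (horizontal axis); circles, squares and diamonds are replicates 1, 2 and 3, and the black bar beside each group is the mean with its SD (n = 3). RPL39L falls from 6.33 to 6.71 under DMSO to 4.91 to 5.95 under Ento+AZD in SU-DHL-4, RPS27L under DMSO is lower in SU-DHL-4 (7.35 to 7.59) than in DG-75 (8.27 to 8.58), and both partner genes stay level.

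RPS27L encodes a protein close to RPS27 of the small subunit and is known as a target of p53. In DG-75 it was 8.57, 8.27 and 8.58 under DMSO and 7.49, 7.18 and 8.81 under Ento+AZD. Arrays 1 and 2 were low and array 3 was above every DMSO array, so that the groups overlapped, and the change of -0.65 (SE 0.301, 95% interval -1.31 to 0.01, limma adjusted p = 0.32) did not pass. It was -1.09 without array 3 and -0.36 without array 2 of Ento+AZD. Under AZD in DG-75 the values were 7.50, 7.95 and 8.31, with a change of -0.55 (limma adjusted p = 0.47; -0.71 to -0.29 with an array or replicate number left out). In SU-DHL-4 it was 7.59, 7.35 and 7.39 under DMSO and 7.57, 6.57 and 7.35 under Ento+AZD (-0.28, limma adjusted p = 0.71), with changes of -0.47 to -0.00 when an array or replicate number was left out. Under Ento in SU-DHL-4 it was 7.36, 6.64 and 7.25 (-0.36, limma adjusted p = 0.74), and -0.18 without the low array 2. Under AZD it was 6.73, 7.49 and 7.04 (-0.35, limma adjusted p = 0.66), and the change was -0.04 without array 1 and -0.74 without array 2. Single arrays thus set the size of these differences, and none passed the test. RPS27 changed by 0.10 (SE 0.154) in SU-DHL-4 and by 0.07 (SE 0.139) in DG-75 under Ento+AZD.

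The 5 remaining paralogues gave no call under any treatment. RPL22L1, related to the RNA-binding protein RPL22, changed by 0.21 (SE 0.188) in SU-DHL-4 and by -0.13 (SE 0.206) in DG-75 under Ento+AZD, and RPL22 by -0.01 and -0.05. RPL7L1, a nucleolar relative of RPL7, changed by 0.01 (SE 0.150) and -0.25 (SE 0.145). RPL26L1 changed by -0.19 and -0.14, and RPL26 by 0.04 and -0.02. RPL3L, a form known from striated muscle, had a mean of 6.88 and changed by 0.01 and -0.13, while RPL3 changed by 0.05 and 0.03. RPL10L, a form known from male germ cells, had a mean of 5.08 and changed by -0.32 (SE 0.169, limma adjusted p = 0.43) and -0.07 under Ento+AZD, and RPL10 by 0.00 and 0.05. Under Ento in SU-DHL-4, RPL10L had the smallest p of the 83 genes: it was 5.09, 5.48 and 5.35 under DMSO and 4.98, 5.09 and 4.56 under Ento, with a change of -0.43 (SE 0.169, limma adjusted p = 0.52). The groups overlapped by a margin too small to show at these decimals, and the change did not pass the test. Without a detection value it cannot be said whether a gene at such a level was expressed.

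Among the 76 genes that are not paralogues, no change under any treatment exceeded 0.34 in size or passed the test in the fit with one common variance. RPLP0, RPLP1 and RPLP2 form the stalk that recruits translation factors. RPLP2 was 11.67, 11.70 and 11.58 under DMSO and 11.95, 11.91 and 11.98 under Ento+AZD in SU-DHL-4, a separation without overlap, with a change of 0.30 (SE 0.142, limma adjusted p = 0.38). In DG-75 the change of RPLP2 was 0.22 (SE 0.119, limma adjusted p = 0.42). RPLP1 changed by 0.12 and 0.17 and RPLP0 by -0.11 and 0.12 in the 2 lines, with adjusted p-values of 0.55 or above.

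Small-subunit genes showed the same scale of difference. RPS4X, an X-linked core protein, was 11.85, 11.87 and 11.81 under DMSO and 12.12, 12.06 and 12.36 under Ento+AZD in SU-DHL-4. The change of 0.34 (SE 0.160, limma adjusted p = 0.37) was the highest of the 83 genes there. RPS19, the gene most often mutated in Diamond-Blackfan anaemia, changed by -0.25 (SE 0.138, limma adjusted p = 0.47) in SU-DHL-4, and its change in DG-75 was -0.09. RPSA, also known as the laminin receptor, changed by -0.20 (SE 0.130) and -0.06. RPS6, the substrate of the S6 kinases, changed by 0.02 and 0.04, and RPS27A, made as a fusion with ubiquitin, by -0.00 and -0.15.

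In SU-DHL-4, 16 of the 83 genes were higher on every Ento+AZD array than on every DMSO array (4.84% of all rows) and 5 were lower (16% of all rows). In DG-75, 10 genes were higher without overlap (4.79% of all rows) and 1 was lower (14% of all rows), which was RPL39L. Each of the upward differences was at most 0.34, and none passed in the fit with one common variance, while RPL28 and RPS15 in DG-75 passed in the fit with variances that follow the expression level, as given above. RPL28 illustrates the size of these differences: it was 12.70, 12.47 and 12.57 under DMSO and 12.86, 12.73 and 12.82 under Ento+AZD in DG-75.

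The second question was whether the lines differed in these genes before any inhibitor was added. Under DMSO, 7 of the 83 genes differed between SU-DHL-4 and DG-75 at an adjusted p under 0.05 (18.1% of all rows), 4 higher and 3 lower in SU-DHL-4. With the fold minimum, 1 gene, RPS27L, was called (7.24% of all rows, 4.13% lower). The median difference of the 83 genes was 0.02, and the 95% interval lay within 1.5-fold for 73 of them (42.6% of all rows). At an unadjusted p under 0.05, 11 genes differed (28% of all rows). That number was 17 in the fit whose variances follow the expression level, where the share of all rows was not computed. With variances that follow the expression level, 10 of the 83 genes passed (19.2% of all rows), the same 7 and RPL22, RPL31 and RPS20, whose differences were -0.27, -0.29 and 0.31.

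RPL24, a protein on the face of the large subunit that meets the small subunit, had the smallest p. It was 10.94, 10.93 and 10.90 in SU-DHL-4 and 11.76, 11.56 and 11.63 in DG-75. The difference was -0.72 (SE 0.111, 95% interval -0.95 to -0.49, limma adjusted p = 5.2e-05). The separation held over every treatment, with a median of 10.92 over the 12 SU-DHL-4 arrays, all of them below the lowest of the 12 DG-75 arrays at 11.51.

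RPL35A, RPS26, RPL29 and RPS28 were higher in SU-DHL-4. RPL35A, a large-subunit protein, was 11.80, 11.76 and 11.68 in SU-DHL-4 and 11.18, 11.23 and 11.10 in DG-75 (0.57, SE 0.106, limma adjusted p = 0.00044). RPS26, a small-subunit protein near the mRNA exit, was 12.46, 12.49 and 12.43 in SU-DHL-4 and 11.98, 11.57 and 11.93 in DG-75 (0.63, SE 0.124, limma adjusted p = 0.00075). The other rows that carry the symbol RPS26 gave 0.81 and 0.88 with limma adjusted p-values of 0.00048 and 0.0048, so that all 3 rows had the same direction. RPL29 was 10.47, 10.39 and 10.37 against 9.90, 9.83 and 9.92 (0.53, SE 0.113, limma adjusted p = 0.0018). RPS28 was 12.32, 12.37 and 12.32 against 12.01, 12.02 and 11.89 (0.36, SE 0.112, limma adjusted p = 0.028), and its second row gave 0.50 (limma adjusted p = 0.0030).

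RPL7L1 and RPS27L were lower in SU-DHL-4. RPL7L1 was 8.54, 8.72 and 8.79 in SU-DHL-4 and 9.43, 9.03 and 9.35 in DG-75, without overlap (-0.59, SE 0.145, limma adjusted p = 0.0057). RPS27L, with the DMSO values given above, differed by -1.03 (SE 0.306, 95% interval -1.67 to -0.40, limma adjusted p = 0.021), and the 3 arrays of each line did not overlap. Its size was -0.96, under the fold minimum, after quantile normalization. RPL39L did not pass between the lines (0.08, SE 0.359), with an interval of -0.67 to 0.83.

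These differences were stable to a different degree when an array or a replicate number was left out. RPL24, RPL35A and RPS26 passed in 9 of 9 omissions, RPL29 in 7, RPL7L1 in 6, RPS27L in 4 and RPS28 in 1. RPL29 was lost without replicate number 1 or 3, and RPL7L1 without DG-75 array 1, replicate number 1 or replicate number 3. RPS27L was lost without DG-75 array 1, DG-75 array 2, SU-DHL-4 array 3, replicate number 1 or replicate number 3, at adjusted p-values of 0.054 to 0.102. RPS28 kept its call only without DG-75 array 2. With only the 6 DMSO arrays fitted, the adjusted p was 0.055 for RPL29 and 0.184 for RPS28, and the other 5 genes passed. Over all 12 arrays of each line, treated ones included, 6 of the 83 genes did not overlap (9.19% of all rows): RPL29, RPL35A, RPS26 and RPS28 were higher and RPL22 and RPL24 lower in SU-DHL-4.

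**Figure D4:**
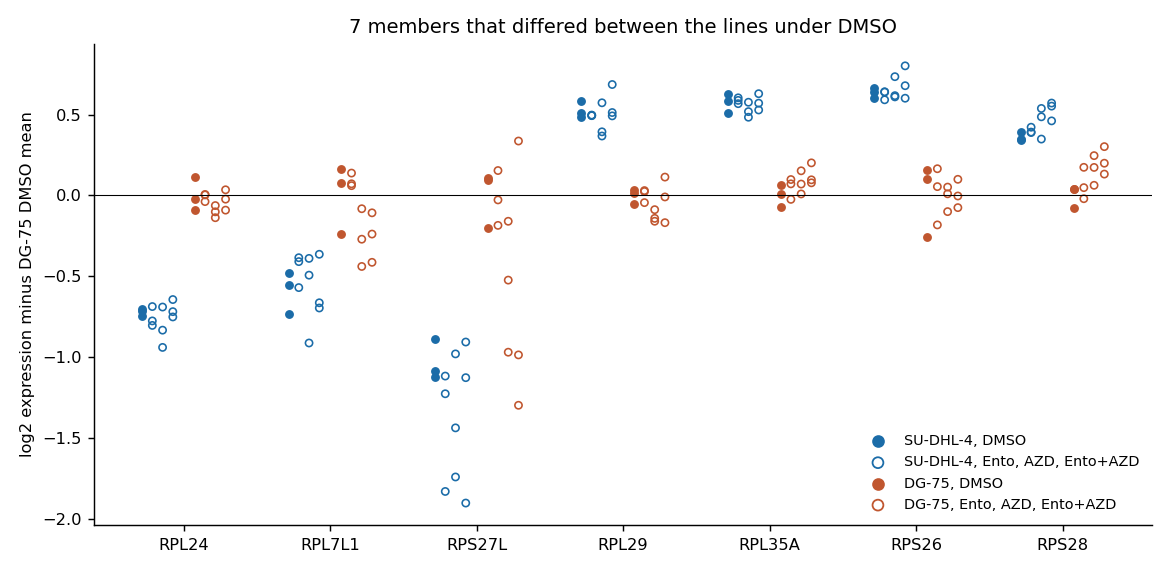
Log2 expression of the 7 genes that differed between the lines under DMSO, minus the DG-75 DMSO mean of the gene (vertical axis), on all 24 arrays; filled points are DMSO arrays and open points are arrays with inhibitor, SU-DHL-4 in blue and DG-75 in orange. RPL24, RPL29, RPL35A, RPS26 and RPS28 form separate clouds per line over all treatments, while the lines overlap in RPS27L and RPL7L1 once treated arrays are included.

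RPL22 and its paralogue lay in opposite directions, without passing the test. Under DMSO, RPL22 differed by -0.27 in SU-DHL-4 minus DG-75 (SE 0.112, limma adjusted p = 0.11) and RPL22L1 by 0.49 (SE 0.198, limma adjusted p = 0.10). RPL5 and RPL11, which bind MDM2 when free of the ribosome, lay at 11.94 to 12.22 and 11.92 to 12.13 on the SU-DHL-4 arrays and at 12.06 to 12.27 and 11.92 to 12.10 on the DG-75 arrays. RPL13A, often used as a reference gene for qPCR, ranged from 12.34 to 12.56 in SU-DHL-4 and from 12.44 to 12.62 in DG-75.

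Genes that make, use or regulate ribosomes were examined as lists beside the 83 genes. FAU and RPL36AL encode ribosomal proteins under symbols outside the naming rule, and neither was called in any contrast. A further list held 18 translation and related genes, HNRNPA1 and NAP1L1 among them, chosen as genes whose mRNAs also start with a run of C and T. Of these, 0 passed under any treatment at an adjusted p under 0.05 in limma (at most 2.39% of all rows in any treatment against DMSO). Unadjusted p-values under 0.05 under Ento+AZD were found for 0 (SU-DHL-4, 14% of all rows) and 2 (DG-75, 16% of all rows) of them. Their median change under Ento+AZD was 0.01 (SU-DHL-4) and 0.07 (DG-75), and 0.14 and 0.15 with array medians subtracted.

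The mitochondrial ribosomal protein genes had lower medians under AZD and Ento+AZD in DG-75. Their ribosome translates the few proteins encoded by mitochondrial DNA, and the 76 measured genes of the MRPL and MRPS series had a median change of -0.34 under Ento+AZD in that line, with 72 below 0, beside -0.07 for all rows. With array medians subtracted it was -0.25, beside 0.02 for all rows. Of these, 4 passed at an adjusted p under 0.05 (2.39% of all rows), all lower: MRPL39 (-0.91, limma adjusted p = 0.021), MRPL22 (-0.92, limma adjusted p = 0.024), MRPL11 (-0.64, limma adjusted p = 0.032) and MRPL3 (-0.60, limma adjusted p = 0.044). In SU-DHL-4 the median was -0.15 beside -0.08 for all rows, and -0.02 beside 0.05 with array medians subtracted. There 2 genes passed, MRPL22 and MRPL39, both at -0.69, a share near the 2.36% of all rows that passed there. Under AZD in DG-75 the median was -0.32 (-0.26 with array medians subtracted) with 0 passing at an adjusted p under 0.05 and 36 at an unadjusted p under 0.05 (13.8% of all rows). The 40 measured genes of ribosome assembly and RNA polymerase I had a median change of -0.23 under Ento+AZD in DG-75 (-0.15 with array medians subtracted), where 1 passed (BRIX1, an assembly factor of the large subunit, -0.81, limma adjusted p = 0.034; 2.39% of all rows, a like share), and of 0.07 in SU-DHL-4 (0.20 with array medians subtracted), where 0 passed.

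Between the untreated lines the assembly list stood lower in SU-DHL-4. Its median difference was -0.51, with 39 of 40 genes below 0 and 18 passing, all lower (18.1% of all rows passed in either direction). HEATR1, needed for synthesis of the ribosomal RNA precursor, differed by -1.43 (limma adjusted p = 2.3e-07). The mitochondrial ribosomal genes had a median difference of -0.25, with 1 higher and 16 lower, a share not far from that of all rows. MYC was 9.41 ± 0.12 (SU-DHL-4) and 9.98 ± 0.17 (DG-75; SD, n = 3), a difference of -0.57 (limma adjusted p = 0.00087), and its changes under the inhibitors lay between -0.31 and 0.03, none passing the test.

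**Figure D5:**
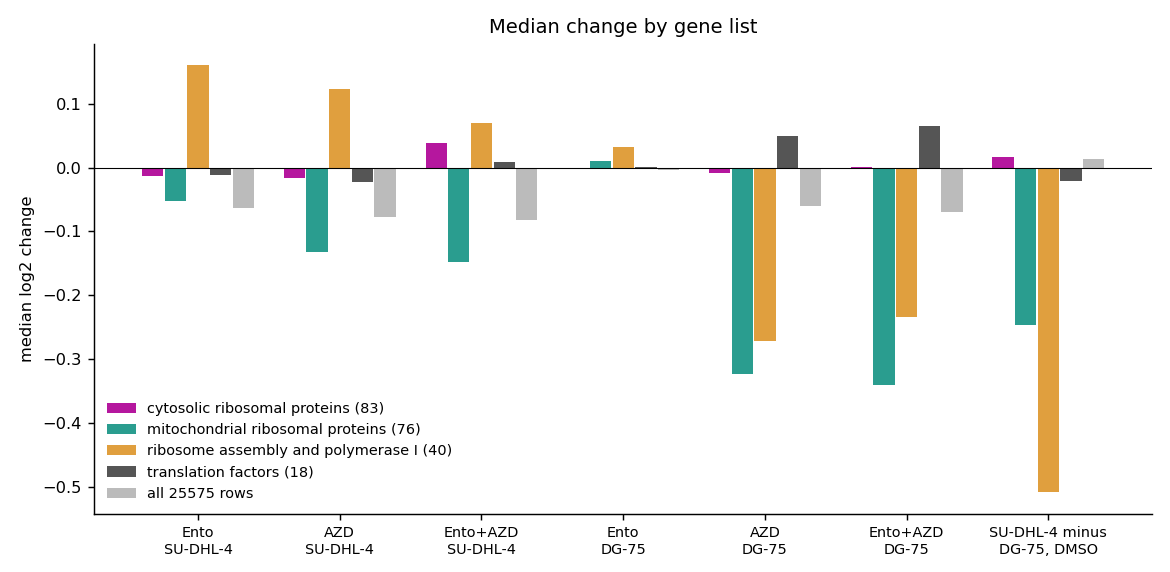
Median log2 change (vertical axis) of the 83 cytosolic ribosomal protein genes and of 3 gene lists and all rows, for each treatment against DMSO in both lines and for SU-DHL-4 minus DG-75 under DMSO (horizontal axis); a bar is the median over the genes of a list and carries no error. The bars labelled translation factors are those of the 18 translation and related genes. The bar of the cytosolic genes stays within 0.04 of 0 throughout, while the mitochondrial ribosomal genes reach -0.34 under Ento+AZD in DG-75 and the assembly genes -0.51 between the lines.

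Regulators of TOP mRNAs and the p53 branch were the remaining lists. Of 8 regulators of TOP translation, EIF4EBP1, the translational repressor 4E-BP1, was lower under Ento+AZD in both lines, by -0.89 in SU-DHL-4 (limma adjusted p = 0.030) and by -0.87 in DG-75 (limma adjusted p = 0.035), and under AZD in DG-75 (-1.01, limma adjusted p = 0.050, just below the threshold). The other 7 did not pass under any treatment, and the shares of all rows that passed in these 3 contrasts were 2.36%, 2.39% and 0.293%. Of 6 genes around MDM2 and p53, 0 passed under any treatment, and 5 differed between the lines under DMSO (18.1% of all rows), among them SESN1 (-2.77), MDM2 (-1.02) and BAX (0.87). SESN1 had a mean of 4.22 in SU-DHL-4 under DMSO, below the array medians of 4.89 to 5.14. Without a detection value it is not known how much of that level is background. RPS27L differed in the direction of SESN1 and MDM2, and whether these differences are linked was not tested.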

How the data were processed

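Biotin-labelled cDNA from total RNA was hybridised to 24 Clariom D arrays. The authors normalized the probe signals by RMA and mapped them to genes, and the deposited values are log2 expression per gene row. Software versions and the annotation build are not given in the sources used here. RMA gives all arrays of a run the same distribution of signals, so that a change common to all mRNAs of a cell would not be visible.

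Contrasts were computed with limma 3.58.1 in R 4.3.3 (lmFit, contrasts.fit, eBayes). Each line was fitted alone with treatment and replicate number, since the study's model has a batch term whose meaning is not stated. Differences between lines used all 24 arrays. P-values were adjusted over all 25575 rows. The series' design text speaks of biological triplicates. Where cultures were not separate, p-values measure only the spread between these samples. No pair of arrays was identical, no per-gene detection value was used, and 0 columns were left out. The number of arrays limits the precision.

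Members and gene lists were chosen with earlier results of these data known. Named genes were called members, up to 5 per contrast and direction with the smallest adjusted p, members with the largest rise or fall, paralogues with their partners, and members with known special roles. RPS15, RPL28, RPL31 and RPS20 were named after their values were seen where this rule does not reach them, and not every gene that the rule reaches is reported here. The calculations were tested on simulated data. Alternatives changed the batch term, the arrays fitted, the filter, the scaling, the variance prior, the rows per symbol and the arrays included. Start sequences were read from RefSeq (GRCh38.p14).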

Additional observations from a re-analysis of the deposited data

How the results depend on the processing

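Counts within a line were recomputed under 8 other settings and 9 omissions of an array or replicate number, those between the lines under DMSO under 7 and 9, and the line differences in response under 7 and 15. Mean levels were recomputed under the 2 scalings only. No called value changed direction. Without the replicate block, SU-DHL-4 under Ento+AZD had 0 called genes in place of 1, by either rule. The titles give the replicate only as a number. In SU-DHL-4 the deviations of same-numbered arrays correlated at -0.11 to 0.39 (median 0.15, 12 of 18 above 0.1). Arrays of different number correlated there at -0.29 to 0.11 (median -0.07). In DG-75 the ranges were -0.35 to 0.34 for the same number (median 0.04, 7 of 18 above 0.1) and -0.41 to 0.36 for different numbers (median -0.01). Under AZD in DG-75, 1 gene was called in place of 0 with all 24 arrays in 1 fit, with rows under the median level omitted, and with the variance prior that follows the level. That prior gave 3 genes in place of 1 at the adjusted p alone under Ento+AZD in DG-75. With only the compared groups fitted, the comparison of Ento+AZD with Ento in DG-75 had 0. Quantile normalization gave 0 by the fold rule for Ento+AZD in SU-DHL-4 and between the lines, and subtracted array medians gave 0 for Ento+AZD in SU-DHL-4; the cause of each of these was not tested beyond the values given.

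Subtracting array medians moved the median change of the members to 0.10, 0.10 and 0.17 under Ento, AZD and Ento+AZD in SU-DHL-4, to 0.054 and 0.089 under AZD and Ento+AZD in DG-75, to 0.080 for DG-75 under Ento+AZD against Ento, and to 0.089 and 0.045 for the line difference in the response to Ento and AZD. It moved the mean level minus DMSO to 0.095, 0.091 and 0.155 in SU-DHL-4 and to 0.034 and 0.085 under AZD and Ento+AZD in DG-75, where quantile normalization gave 0.028 under AZD.

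Over the omissions, calls ranged from 0 to 1 for Ento+AZD against DMSO in each line and against Ento in DG-75 by both rules, and for the lines under DMSO by the fold rule, and from 3 to 6 for the lines by the adjusted p alone. Medians ranged from -0.017 to 0.057 for DG-75 under Ento+AZD against Ento, from -0.043 to 0.055 for the line difference under Ento and from -0.054 to 0.053 under AZD. Levels near the brightest signals and the absence of a detection value limit what these arrays can show of abundant and of dim genes.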
